A study of Homo sapiens with 4 samples.

Results

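*CCN1*, *CCN2*, *THBS1*, *TGFB1*, *TGFB2*, *TGFBR2*, *SMAD3*, *SMAD7* and *SKIL* are 9 genes of the TGF-beta and YAP pathways, taken as a set by name out of 62663 annotated genes, of which 20033 are protein-coding. Their H3.3 occupancy was read from the deposited peak lists of MRC5 cells, a line of human fetal lung fibroblasts (named MRC5_VA, an SV40-immortalized derivative, in the study's methods). The untreated cells form the no UV group, and cells harvested 3 h after 10 J/m2 of UV-C form the UV group, and the labels give no other treatment or genetic change for either. Each group is 1 library made from the pooled DNA of 3 replicates, so neither list carries a spread between replicates, and the values of the 2 libraries are set side by side with no test. All intervals of a list that overlapped 1 of the genes, or that lay within 20 kb of any of its annotated transcription start sites (TSSs, GENCODE release 44, hg38), were taken, which gave 171 of 88822 distinct intervals without UV and 149 of 77183 after UV.

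TGF-beta ligands are secreted in a latent form and, once released, bind a complex of the receptor kinases TGFBR2 and TGFBR1. This complex phosphorylates SMAD2 and SMAD3, so that they enter the nucleus and act on target genes. SMAD7 and SKIL are targets that feed back on the same pathway. YAP and its paralog TAZ carry mechanical and Hippo signals to the nucleus, where they bind DNA through TEAD factors, and *CCN1* and *CCN2*, which encode secreted matricellular proteins, are their standard target genes. H3.3 is the histone H3 variant deposited outside of replication, and in active genes it is typically found around the start site and along the transcribed region.

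The list without UV was longer (88822 against 77183 distinct intervals, a ratio of UV to no UV of 0.869). At a −log10 q of at least 5 the 2 lists held 43987 and 44418 intervals. The median −log10 q was 4.99 without UV and 5.915 after UV, so this threshold need not mark the same strength in both lists. The intervals at the 9 genes followed the same course, with 171 and 149 in all (ratio 0.871) and 92 and 91 at that threshold. Because peak strength depends on the depth of a library, and the lists hold no read numbers, strength is given below as the percentile of a peak's −log10 q among all peaks of its own list (100 is the strongest) or as its rank (1 is the strongest). To see how unique the sequence under a peak is, the 15-base words in the 151 bases around each summit were counted over hg38 on both strands. A word was called high-copy if it occurred at least 1000 times, and a summit if at least 50% of its words were. Of 14 fibroblast markers, 9 had an interval within 1 kb of a TSS without UV and 11 after UV. *COL3A1*, *THY1* and *TBX4* had none in either list. Such intervals were also found at 5 of 10 epithelial markers in both lists (*CDH1*, *KRT8*, *KRT18*, *SFTPB* and *SFTPC*), at 0 of 6 endothelial markers in both lists, and at 2 and 1 of 6 blood markers. Over all protein-coding genes the shares were 48% without UV and 54% after UV. The strongest such peaks of *KRT8* and *KRT18* had the same ranks (812 without UV and 2305 after UV), so these 2 markers may share 1 peak.

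An interval whose edge lay within 1 kb of any TSS of its gene was called a promoter interval. All 9 genes had at least 1 in the list without UV, where 48% of protein-coding genes had one, and all 9 had at least 1 in the UV list, where 54% of protein-coding genes did. The share of protein-coding genes with a promoter interval in both lists was 44.8%. The strongest promoter peak stood at a higher percentile of its list after UV at 6 of the 9 genes (*CCN1*, *CCN2*, *TGFB1*, *TGFBR2*, *SMAD3* and *SKIL*), and at 61.5% of the 8974 protein-coding genes with a promoter interval in both lists. The median over the 9 genes was 90.64 without UV and 95.16 after UV, beside 85.11 and 89.42 over those 8974 genes. The genes are described one by one in what follows.

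**Figure D1:**
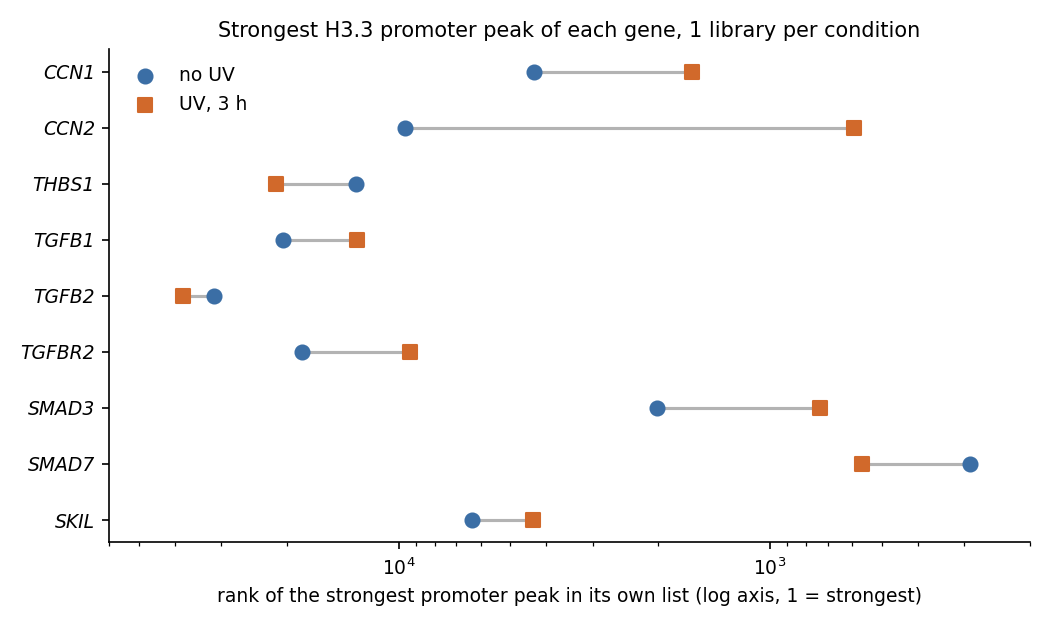
Rank of the strongest H3.3 promoter peak of each gene in its own list, on a log axis with the strongest peaks to the right (1 library per condition, circles without UV, squares 3 h after UV). *CCN2* moved the farthest, from rank 9628 to rank 594, while *THBS1*, *TGFB2* and *SMAD7* moved to weaker ranks. At *TGFB1* and *TGFB2* the strongest peaks of the lists were different intervals that did not overlap.

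*CCN2* (connective tissue growth factor; chr6:131948176-131951372, minus strand) had a single promoter interval in each list. Without UV it spanned chr6:131950737-131951359, from 13 to 635 bp downstream of the TSS, with a −log10 q of 17.04 and an enrichment of 4.437-fold over background. After UV it spanned chr6:131950700-131951451 and reached across the TSS, from 79 bp upstream to 672 bp downstream, with a −log10 q of 82.56 and an enrichment of 13.03-fold. Both summits lay in an intron. This peak was at rank 9628 without UV and at rank 594 after UV (percentiles 90.64 and 99.34), a factor of 16.2 between the ranks. Of the 8974 protein-coding genes with a promoter interval in both lists, 34 (0.379%) had a larger factor, and the median factor over them was 1.47. By fold enrichment in place of −log10 q, its percentile was 52.47 without UV and 98.4 after UV. The interval also lay within 1 kb of a TSS of *LINC01013*, so the 2 genes cannot be told apart here. The rest of the locus was almost empty, with 2 flanking intervals in each list and none in the gene body outside of the promoter. The strongest flanking intervals stood at percentiles of 29.7 without UV, 2744 to 3024 bp upstream of the TSS and with no counterpart after UV, and 39.97 after UV, from 13634 to 14018 bp downstream of the TSS.

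The 250 bases before the TSS of *CCN2* are shown with those of *THBS1* and *TGFB2*, because these were the 3 genes of the set whose RefSeq promoter (GRCh38.p14, 250 bases before to 50 after the TSS) held the TEAD core GGAATG, read on both strands, and the intervals can be placed against it. Capitals mark the core (CATTCC on the other strand).
CCN2: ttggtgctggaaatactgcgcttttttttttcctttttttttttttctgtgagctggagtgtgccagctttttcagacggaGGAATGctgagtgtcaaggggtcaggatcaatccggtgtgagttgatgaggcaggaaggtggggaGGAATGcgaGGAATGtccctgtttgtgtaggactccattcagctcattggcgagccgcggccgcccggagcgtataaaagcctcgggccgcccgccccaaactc
THBS1: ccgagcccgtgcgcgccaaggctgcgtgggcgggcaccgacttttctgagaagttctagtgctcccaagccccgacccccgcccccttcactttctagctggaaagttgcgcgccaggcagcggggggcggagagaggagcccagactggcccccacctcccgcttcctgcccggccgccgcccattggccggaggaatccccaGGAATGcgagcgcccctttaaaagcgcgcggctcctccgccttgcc
TGFB2: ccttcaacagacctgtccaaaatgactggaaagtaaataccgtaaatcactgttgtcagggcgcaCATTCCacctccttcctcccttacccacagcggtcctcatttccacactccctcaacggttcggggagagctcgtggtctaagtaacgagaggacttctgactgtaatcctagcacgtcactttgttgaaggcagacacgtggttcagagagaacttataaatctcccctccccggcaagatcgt
These run 5′ to 3′ along each gene and come from chr6:131951373-131951622 (minus strand), chr15:39580829-39581078 (plus strand) and chr1:218345086-218345335 (plus strand). The *CCN2* promoter held 3 cores, beginning at −169, −104 and −95 from the TSS, while 14.03% of the 35116 RefSeq promoters held at least 1 core and 0.1281% held 3 or more. All 3 lay upstream of the edge of the *CCN2* interval in both lists. The core of *THBS1* began at −46 and that of *TGFB2* at −185, and neither fell within an interval of either list. Of the other genes, *TGFBR2* held an AP-1 site (TGANTCA, found in 7.709% of promoters) at −6 of the TSS at chr3:30606601, and *SMAD3* one at −56 of an internal TSS. The SMAD palindrome GTCTAGAC and the CArG box were found in no promoter of the 8 genes with an entry (0.2022% and 1.293% of all promoters). *CCN1* was not matched.

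*CCN1* (chr1:85580761-85584589, plus strand) resembled *CCN2* in position. Its main promoter interval covered 43 to 906 bp downstream of the TSS without UV and reached from 114 bp upstream to 886 bp downstream after UV, with −log10 q values of 27.08 and 56.87. The rank went from 4321 to 1620, a factor of 2.67, and 24.0% of the background genes had a larger one. A second, weak promoter interval upstream of the TSS (percentile 13.61) was in the list without UV only. The gene body held 2 intervals in each list. The strongest one lay over coding exons 1929 to 2576 bp downstream of the TSS without UV (percentile 71.17) and 1921 to 2317 bp downstream after UV (percentile 74.76). Upstream, an interval 3477 to 4123 bp before the TSS was the strongest of the locus without UV (percentile 98.61) and remained strong after UV (percentile 96.16). It lay within 1 kb of a TSS of an unnamed annotated gene in both lists, and after UV also of the neighbouring gene *DDAH1*. It cannot be assigned to *CCN1* alone.

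*CCN1* and *CCN2* were also the 2 genes of the set whose canonical TSS lay inside an interval after UV and not before. Without UV the canonical TSS was inside an interval at 4 of the 9 genes (*TGFB1*, *TGFBR2*, *SMAD3* and *SKIL*), beside 17.6% of protein-coding genes. After UV it was inside one at 6 of the 9, beside 28.2% of protein-coding genes. *THBS1*, *TGFB2* and *SMAD7* had intervals on 1 or both sides of the canonical TSS in both lists, but none across it.

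**Figure D2:**
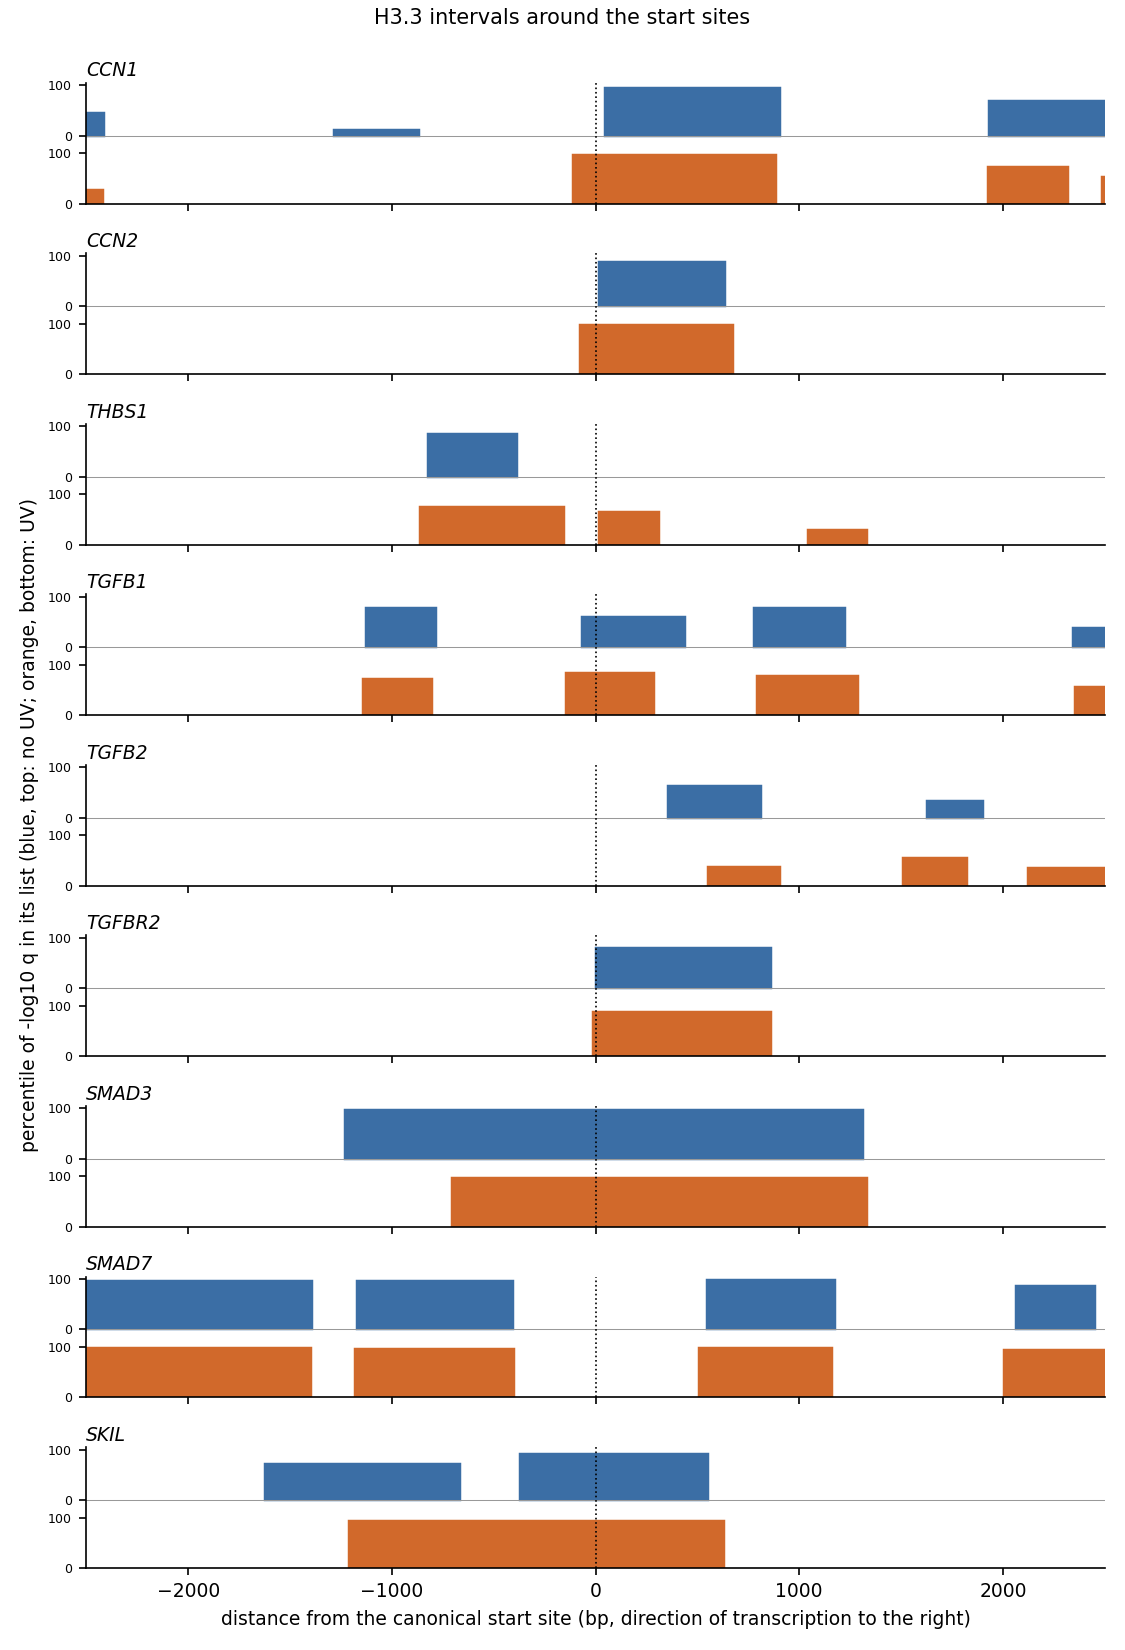
H3.3 intervals from 2500 bp upstream to 2500 bp downstream of the canonical start site of each gene (dotted line), drawn to scale in the direction of transcription. Height is the percentile of −log10 q in the list (upper track without UV, lower track after UV, 1 library each). At *CCN1* and *CCN2* the interval crosses the start site after UV only, and *SMAD7* has strong intervals on either side of an empty start site in both lists.

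*THBS1* encodes thrombospondin-1, a matrix protein that releases TGF-beta from its latent complex (chr15:39581079-39599466, plus strand). It had 7 intervals without UV and 4 after UV, and 2 of the 7 had a counterpart, meaning an overlap of at least 1 bp with an interval of the other list. Without UV, 4 promoter intervals were found. The strongest was 387 to 825 bp upstream of the 5′ TSS (−log10 q of 14.28, percentile 87.31), and the other 3 lay at TSSs of internal transcripts, 7183 to 13895 bp downstream, with percentiles of 27.72, 0.3061 and 45.33. None of these 3 was present after UV. The one at 27.72 also lay within 1 kb of a TSS of *THBS1-AS1* and cannot be assigned to *THBS1* alone. In the UV list the upstream interval was broader, from 865 to 157 bp before the TSS (−log10 q of 11.75, percentile 76.12), and an interval 11 to 313 bp downstream, in the 5′ UTR, was present in this list only (percentile 67.53). Promoter coverage over all TSSs was 2001 bp without UV and 1012 bp after UV, a ratio of 0.506. The direction turned, with a ratio of 2.305, when the 5′ TSS alone was counted and also when peaks below a −log10 q of 5 were left out. In the 3′ UTR, an interval ending near the end of the gene had percentiles of 88.15 and 73.82, and 61.3% and 72.3% of the words around its summit were high-copy.

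*THBS1* was the only gene of the 9 whose promoter coverage changed at least 1.5 times, as 8.27% of the 8974 background genes did in that direction. None of the 9 gained at least 1.5 times, as 30.3% of the background genes did. The median ratio of promoter coverage was 0.9527 over the 9 genes and 1.206 over the background genes. The counts of genes past this ratio changed with the window and threshold.

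The 2 ligand genes, *TGFB1* and *TGFB2*, had the weakest promoter peaks of the set without UV by −log10 q. By fold enrichment this order did not hold, with *TGFB2* at a percentile of 83.95 and *TGFBR2* at 17.14. At *TGFB1* (chr19:41301587-41353922, minus strand) 6 promoter intervals were found in each list. The interval over the canonical TSS ran from 69 bp upstream to 437 bp downstream without UV (−log10 q of 6.536, percentile 62.67). After UV it ran from 150 bp upstream to 287 bp downstream (−log10 q of 17.59, percentile 85.6) and was the strongest promoter peak of the gene. Without UV the strongest was one 782 to 1130 bp upstream (percentile 80.11), which stood at 74.49 after UV. Both intervals also lay within 1 kb of a TSS of *TMEM91* in both lists and cannot be assigned to *TGFB1* alone. By fold enrichment, the percentile was 2.528 and 47.22 for the interval over the TSS and 68.87 and 33.91 for the upstream one, so each had the same direction by both measures.

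The body of *TGFB1* held 25 intervals in each list. Of these, 15 without UV and 17 after UV lay beyond the canonical transcript, which is 23.6 kb of the 52.34 kb gene model, in the stretch that the longest annotated transcripts share with neighbouring genes such as *CCDC97* and *HNRNPUL1*. Intervals there cannot be assigned to *TGFB1* alone. Within the canonical transcript the strongest body interval, chr19:41330780-41331364 over a coding exon near the 3′ end, had percentiles of 99.26 without UV and 97.95 after UV. The strongest after UV, chr19:41324980-41325510, lay beyond that transcript in an intron, with percentiles of 98.24 and 98.64. Farther on, the interval at chr19:41306473-41307060 stood at 79.63 without UV and 97.63 after UV. Upstream of the gene, the strongest flanking interval without UV, 12629 to 14059 bp before the TSS, had a percentile of 98.23 and a high-copy summit (60.6% of its words). After UV the strongest was a single interval of 2949 bp with 5 summits, at a percentile of 93.72 and also high-copy (66.4%). It overlapped that interval and separate ones at percentiles of 96.1 and 30.8 without UV.

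At *TGFB2* (chr1:218345336-218444619, plus strand) the strongest promoter peak was at a percentile of 69.16 without UV and 57.63 after UV, and these were different places. The first was at an internal TSS 87473 to 88074 bp downstream, had no counterpart and had a high-copy summit (72.3% of its 15-base words), and the second was over coding sequence, 1506 to 1821 bp downstream and within 1 kb of a TSS of *TGFB2-AS1*, with no such words. Next to the TSS itself, an interval in the 5′ UTR had percentiles of 64.55 and 39.43, and without UV it also lay within 1 kb of a TSS of *TGFB2-AS1*. The promoter interval that was strongest after UV overlapped one at 35.14 without UV, and a further pair stood at 26.63 and 36.78. Of the 3 overlapping promoter pairs, 2 thus stood higher and 1 lower after UV (median change 10.2). The gene body held 33 intervals without UV and 26 after UV, the most of the 9 genes in both lists. Of 23 overlapping pairs in the body, 17 stood at a lower percentile after UV, beside 15342 of the 24602 body pairs of all protein-coding genes. The median change was −15.4, beside −5.84 over those 24602 pairs. The strongest body interval without UV, chr1:218396874-218397602, had percentiles of 96.27 and 83.71, and the strongest after UV, chr1:218380836-218381628, had 89.63 and 85.36. Both had high-copy summits (96.4% and 78.1% of the words in the list where each was strongest). The strongest interval without a counterpart, chr1:218411385-218411990 in an intron, stood at 91.14 in the list without UV, higher than any other unpaired interval of the 9 genes, and 86.1% of its words were high-copy.

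*TGFBR2*, the ligand-binding receptor kinase (chr3:30606601-30694142, plus strand), was the only one of the 9 genes with more intervals after UV, 11 against 8. All 8 intervals without UV had a counterpart. The promoter interval was nearly the same in both lists (4 bp upstream to 862 bp downstream, and 17 bp upstream to 861 bp downstream), and its percentile was 82.38 without UV and 89.62 after UV (ranks 18137 and 9307). The gene body went from 5 to 8 intervals. Between 50766 and 54167 bp downstream of the TSS, 2 intervals without UV stood opposite 4 narrower ones after UV, 1 of them without a counterpart. The strongest body interval, chr3:30622516-30623026 in an intron 15915 to 16425 bp downstream, had a percentile of 95.04 without UV and 53.41 after UV (−log10 q of 24.92 and 6.354).

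*SMAD3*, the receptor-activated transcription factor of the pathway (chr15:67063763-67195173, plus strand), had the broadest promoter interval of the set in each list, 2549 bp without UV and 2043 bp after UV. The interval covered the TSS on both sides in both lists. It also lay within 1 kb of a TSS of an unnamed annotated gene in both lists and cannot be assigned to *SMAD3* alone. Its −log10 q was 38.01 and 77.36, and its rank 2020 and 735, a factor of 2.75 (22.9% of background genes had a larger one). After UV its upstream edge was 710 bp before the TSS, where it had been 1236 bp before it. In all, *SMAD3* had 5 promoter intervals without UV and 7 after UV, with promoter coverage of 5074 and 4351 bp. Of 6 overlapping promoter pairs, 2 stood higher and 4 lower after UV (median change −29.8). The interval chr15:67126998-67129205 stood at 76.91 without UV, and those that overlapped it after UV at 12.74, 40.78 and 33.9. The gene body held 24 and 19 intervals, and 18 overlapping pairs were split evenly, with 9 higher and 9 lower after UV. Of these, chr15:67109662-67110003 had percentiles of 48.6 and 85.72. In contrast, chr15:67105595-67106829 stood at 96.34 without UV, and the intervals that overlapped it after UV at 80.27 and 10.67. The strongest body interval, chr15:67150680-67151751, had percentiles of 96.68 and 96.32, with 97.8% and 84.7% high-copy words.

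Without UV, the strongest peaks of the *SMAD3* locus lay upstream of the gene and had high-copy summits. The interval chr15:67044719-67045597, 20005 to 20883 bp upstream of the canonical TSS, had a −log10 q of 66.8, an enrichment of 23.69-fold and rank 374 without UV (percentile 99.64), and a −log10 q of 17.01 after UV (percentile 84.85). Its neighbour chr15:67041870-67044419 had percentiles of 98.34 and 97.59. At the first of these, 93.4% of the words around the summit were high-copy without UV and 80.3% after UV. In contrast, the words around the *CCN2* and *SKIL* promoter summits after UV held 0 high-copy ones, with medians of 3 and 5 copies per word.

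High-copy summits made up 48.5% of the 171 intervals without UV and 47.0% of the 149 after UV, beside 55.4% and 50.7% of the intervals at all protein-coding genes by the same rule. They were least common among promoter intervals (6 of 32 and 4 of 28) and made up 56 of 105 and 48 of 92 gene body intervals and 21 of 34 and 18 of 29 flanking ones. By gene, they numbered 0 of 3 in both lists at *CCN2*, 3 of 10 and 0 of 8 at *CCN1*, 24 of 37 and 19 of 30 at *TGFB2*, and 6 of 11 and 4 of 5 at *SKIL*. The strongest promoter peaks of *CCN1*, *CCN2*, *THBS1*, *TGFB1*, *TGFBR2*, *SMAD3*, *SMAD7* and *SKIL* all had at most 0.73% of such words in both lists. The intronic *TGFBR2* interval above was at 49.6% without UV and 73.0% after UV. Of 55 overlapping pairs with high-copy summits in both lists, 37 stood lower after UV (median change −6.31), and of 64 pairs with none, 32 stood lower (median change 0.108). Over all protein-coding genes, 25781 of 45616 pairs stood lower and 19835 higher, but those pairs were not split by summit. It was therefore not tested whether the contrast between high-copy and other pairs is particular to this gene set. The reads of the study are longer than these words, so a high-copy summit does not show that its reads align to many places. Whether they do, and the part this plays in the distal intervals, was not tested.

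**Figure D3:**
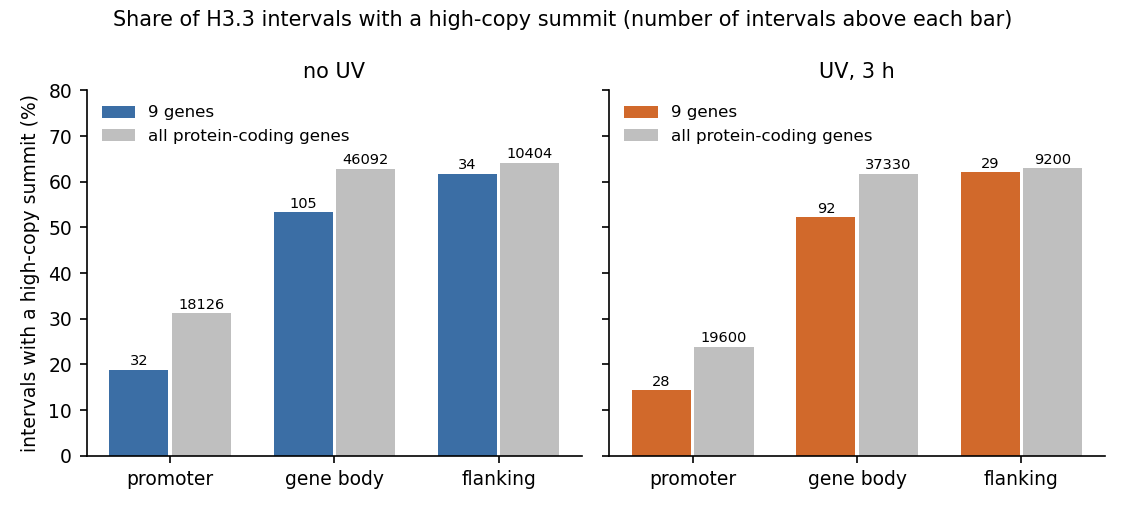
Share of intervals with a high-copy summit, in percent, by position and list, for the 9 genes (coloured bars) and all protein-coding genes (grey bars), with the number of intervals above each bar. Promoter intervals have the lowest shares in both lists, and the shares of the 9 genes lie below those of all genes.

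**Figure D4:**
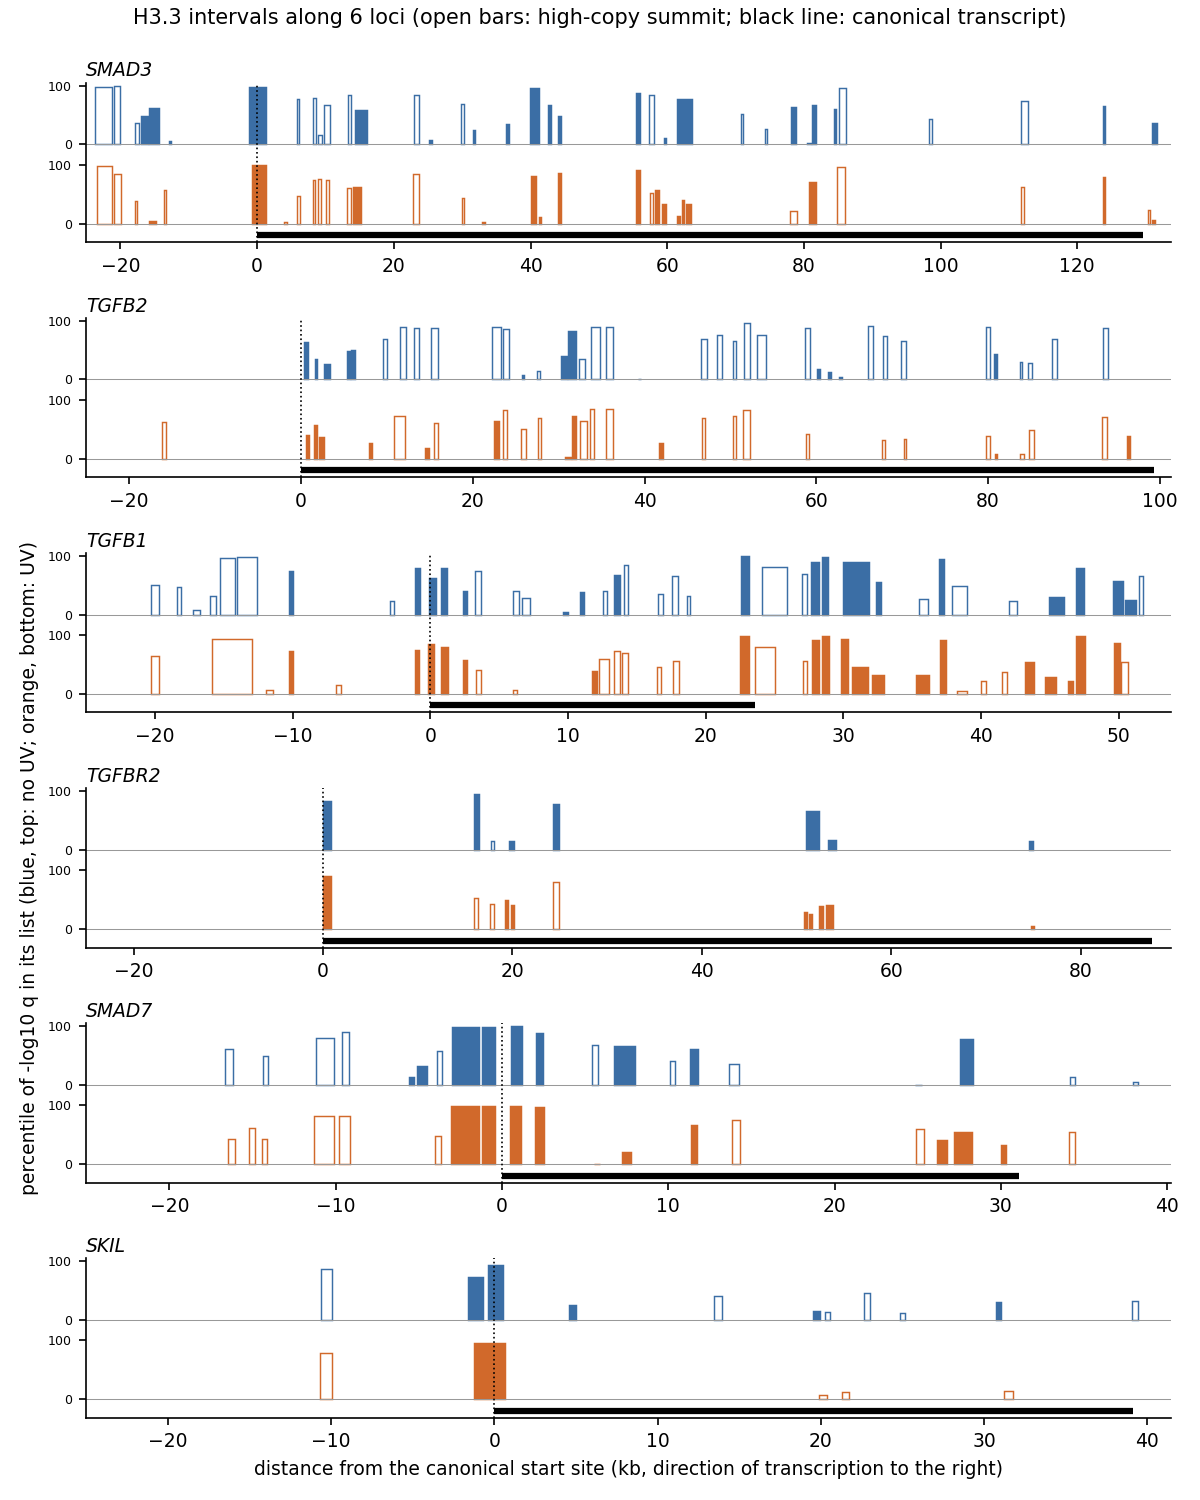
H3.3 intervals along 6 of the loci, against the distance from the canonical start site in kb. Height is the percentile of −log10 q in the list (upper track without UV, lower track after UV), open bars have a high-copy summit and the black line is the canonical transcript. At *TGFB2* 24 of 37 intervals without UV and 19 of 30 after UV are open, and so are the strong intervals far upstream of *SMAD3*.

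*SMAD7*, the inhibitory SMAD that is itself induced by TGF-beta (chr18:48919853-48950965, minus strand), had the strongest promoter peak of the set in both lists by −log10 q. This interval, 540 to 1175 bp downstream of the TSS over coding sequence, had a −log10 q of 71.53 and rank 289, and after UV a −log10 q of 84.34 and rank 565 (percentiles 99.72 and 99.37). By fold enrichment its percentile was 89.18 and 90.21, so the direction turned with the measure. On the other side of the TSS an interval from 1176 to 408 bp upstream had percentiles of 98.96 and 98.78, and a further one 1392 to 3025 bp upstream had 98.58 without UV and 99.45 after UV. At an internal TSS, the interval 2058 to 2451 bp downstream had a percentile of 87.67 without UV and 96.64 after UV. The weakest promoter interval, at another internal TSS 6732 to 7966 bp downstream, stood at 66.66 without UV and 20.9 after UV. The strongest body intervals were moderate, at percentiles of 78.01 and 75.05, and the locus held 20 and 19 intervals in all.

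*SKIL* encodes SnoN, a corepressor that binds SMADs and is degraded on TGF-beta signalling (chr3:170357342-170396835, plus strand). Without UV 2 intervals lay around the TSS, one 667 to 1627 bp upstream (percentile 72.53) and one from 374 bp upstream to 552 bp downstream (percentile 93.81). After UV a single interval of 1847 bp with 3 summits overlapped both, from 1216 bp upstream to 630 bp downstream. Its percentile was 95.16 by −log10 q and 97.89 by fold enrichment (70.19 without UV for the interval over the TSS). These values belong to its strongest summit, at −944 bp from the TSS, within the stretch of the upstream interval without UV. The summit of the interval over the TSS without UV lay at 75 bp, so the 2 peaks compared are at different places. Upstream, a flanking interval 9920 to 10597 bp before the TSS, with a high-copy summit, had percentiles of 87.36 and 78.36. The gene body held 7 intervals without UV and 3 after UV. Of the 11 intervals without UV, 6 had no counterpart, and the strongest of these, with a high-copy summit at an internal TSS, stood at a percentile of 46.41. The body intervals of both lists were weak, at percentiles of 11.03 to 40.22 without UV and 6.095 to 13.69 after UV.

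**Figure D5:**
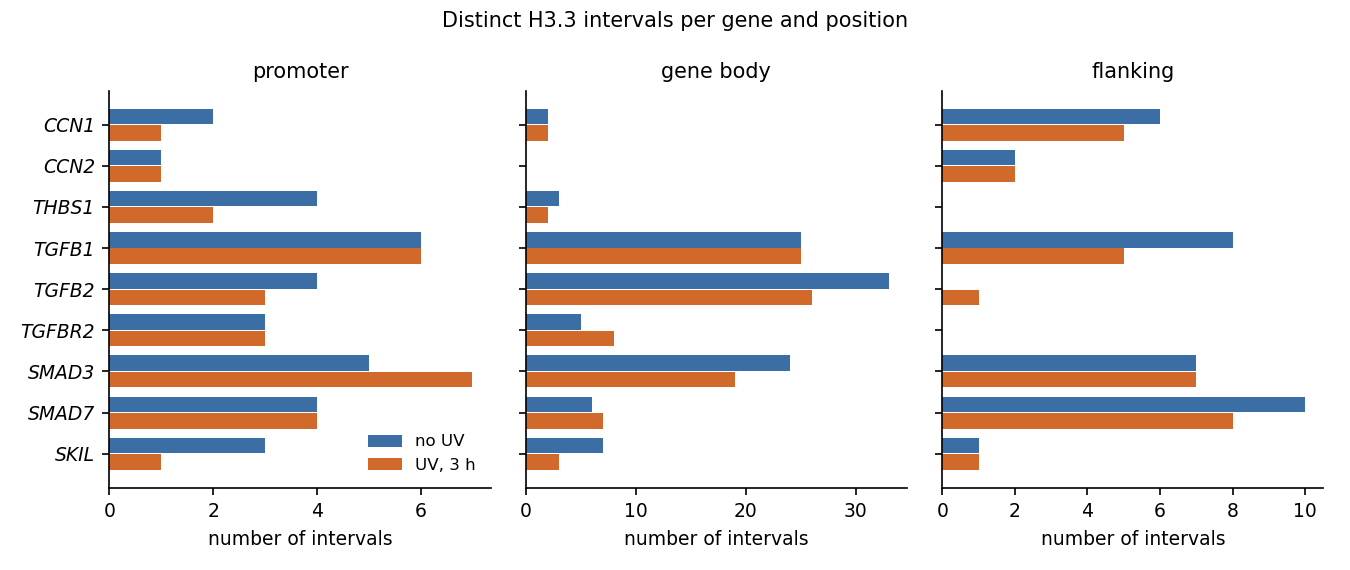
Number of distinct H3.3 intervals per gene at promoters, in gene bodies and in flanks (blue without UV, orange 3 h after UV, 1 library each). *TGFB1*, *TGFB2* and *SMAD3* hold most body intervals, and *TGFBR2* and *SMAD7* are the 2 genes with more of them after UV.

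Over all 9 genes, promoter intervals numbered 32 and 28 (ratio of UV to no UV 0.875), gene body intervals 105 and 92 (0.876) and flanking intervals 34 and 29 (0.853), all close to the ratio of the whole lists of 0.869. Fewer body intervals after UV were found at 4 of the 8 genes with any (*TGFB2*, *SKIL*, *THBS1* and *SMAD3*), beside 50.6% of protein-coding genes. Of the intervals without UV, 121 of 171 had a counterpart (70.76%, exact Clopper-Pearson 95% interval 63.33 to 77.45%), and of those after UV, 123 of 149 (82.55%, 75.49 to 88.27%). These intervals cover counting error only, and intervals of 1 gene are not independent. Over all protein-coding genes the shares were 58.01% and 64.94%. By position, the shares at the 9 genes were 75% and 89.29% for promoters, beside 76.5% and 67.71% over all protein-coding genes. They were 70.48% and 81.52% for gene bodies (50.47% and 62.78% over all) and 67.65% and 79.31% for flanks (59.18% and 67.79% over all). The strongest intervals without a counterpart, beside those of *TGFB2* and *THBS1*, were chr15:67108184-67108632 in an intron of *SMAD3* (percentile 66.75, without UV), chr19:41302136-41302416 in the *TGFB1* model (65.74, without UV, high-copy) and flanking intervals of *TGFB2* and *SMAD7* (61.9 and 61.05, after UV, both high-copy). Intervals with a counterpart were the stronger ones, with a median percentile of 68.87 against 30.95 for the others without UV, and 61.37 against 31.55 after UV.

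The percentile was higher after UV in 56 of 131 overlapping pairs (42.7%), beside 43.5% over all protein-coding genes. Promoter pairs were split 14 higher to 12 lower (53.8% higher, beside 56.3% over all protein-coding genes) and body pairs 33 to 47 (41.2%, beside 37.6%). The TEAD core occurred in 19.88% of the intervals of the 9 genes without UV and 22.82% after UV, beside 19.86% and 19.05% of all intervals, and the AP-1 letters in 16.96% and 16.78%, beside 15.96% and 14.55%. Intervals of the 9 genes were somewhat wider than those of the whole lists (medians of 485 and 469 bp against 435 and 449 bp), which gives more room for a match.

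The other genes of both pathways were taken from a list of 72 genes that includes the 9. A promoter interval was found at 61 of them without UV and at 66 after UV. All 61 had one after UV as well, 5 had one in the UV list only, and 0 in the list without UV only. Of all protein-coding genes, 9.2% had one in the UV list only and 3.2% in the list without UV only. The 5 genes with a promoter interval in the UV list only were *TGFBR1*, the partner receptor of TGFBR2 (percentile 75.32), *TEAD3*, a DNA-binding partner of YAP (69.57), *CCDC80* (51.7), *AMOT*, a YAP-binding scaffold (22.16), and *ANKRD1*, a YAP target (1.564). None was found in either list at *BAMBI*, a decoy receptor, *ACVRL1*, *PMEPA1*, *NUAK2*, *RBMS3* or *FOXF2*. Among the 63 genes outside the set, 52 had a promoter interval in both lists, and 30 of these 52 stood at a higher percentile after UV, near the 61.5% of all genes. Over all 72 genes, sorted by role, the percentile was higher after UV at 7 of 7 genes of YAP and its partners with an interval in both lists, 10 of 14 YAP targets, 4 of 6 TGF-beta targets, 5 of 10 genes of ligands and latency, 5 of 11 Hippo kinases and regulators, 3 of 5 SMAD regulators, 1 of 3 receptors and 1 of 5 SMADs. These groups are small and were not tested.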

How the data were processed

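H3.3 ChIP-seq was analysed in 1 library without UV and 1 library 3 h after 10 J/m2 UV-C, each from pooled DNA, and the input libraries were not analysed here. By the study's methods and the submitters' processing notes, reads were trimmed (Trimmomatic 3.36), mapped to hg38 (BWA 0.7.12) and freed of duplicates (Biobambam2) before MACS called peaks. The notes list MACS 1.4.2, although the columns have the layout of later versions. The control and threshold for H3.3 are not given in the sources used here. For every peak the authors deposited a score, the fold enrichment at the summit (linear ratio) and significance as −log10 p and −log10 q, each specific to its library. No read numbers are given, so the depth is unknown.

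Of 102949 and 89740 deposited peaks, 102924 and 89709 on the main chromosomes were used, and peaks that share an interval were counted once. No interval ran past a chromosome end of hg38. Gene body intervals overlapped the gene outside of promoters, and flanking intervals were the rest. The members, the pathway and marker lists and the alternatives were chosen with earlier results of these data known. The text names the strongest promoter, body and flanking interval of each gene and the strongest without a counterpart, and pathway genes with a promoter interval in 1 list or in neither. Other intervals were named after their values were seen, and the high-copy measure was also chosen then. The sequences of high-copy summits are not reported here. The counting was tested on simulated intervals. Alternatives covered the TSS window, flank, peak threshold, list length, TSS set and overlap. Software was Python 3.11.15 with numpy 2.4.6 and pandas 2.3.3, SciPy 1.17.1, Matplotlib 3.10.9 and samtools 1.23.1.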

Additional observations from a re-analysis of the deposited data

How the results depend on the processing

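No paired analysis was possible because each condition has 1 library, and for the same reason no replicate could be left out. All 9 genes kept a promoter interval in both lists under the alternatives run, except that *SMAD3* had none in the UV list with 1 TSS per gene (8 of 9). In the values that follow, the list without UV comes first. At a −log10 q of at least 5 there were 92 and 91 intervals, of them 19 and 17 at promoters, 59 and 58 in gene bodies and 14 and 16 in flanks. With 1 TSS per gene, 14 and 12 promoter intervals were counted. Flanks of 10 kb held 14 and 12 intervals, and flanks of 50 kb 109 and 84. Without high-copy summits (chosen after seeing the data) 88 and 79 intervals remained, of them 49 and 44 in gene bodies and 13 and 11 in flanks. The share without UV with a counterpart was then 62.5%, with counterparts that had a high-copy summit left out as well. Against the full UV list, 62 of these 88 intervals (70.5%) had a counterpart. Genes with promoter coverage at least 1.5 times lower after UV numbered 1, and 3 with a 2 kb window, 2 at a −log10 q of at least 5, 0 with 1 TSS per gene and 2 without high-copy summits. Those with coverage at least 1.5 times higher numbered 0, and 1 with a 500 bp window, at a −log10 q of at least 5, with 1 TSS per gene and without high-copy summits. With strength by fold enrichment at the promoter interval strongest by −log10 q in each list, the change in percentile was 1.026 at *SMAD7*, opposite to that by −log10 q, and −21.66 at *TGFB1*, where it compares different intervals and each interval kept its direction. The difference in intervals, UV minus no UV, turned from negative to 1 at *CCN1*, *TGFB1* and *SMAD7* without high-copy summits, to 1 at *SMAD3* and *SMAD7* with equal numbers of peaks, to 2 at *SMAD7* at a −log10 q of at least 3 or 5, and to 1 at *THBS1* and 3 at *TGFB1* at 5. The alternatives on promoter coverage, peak strength and the canonical transcript were also chosen after seeing the data. Fewer peaks or TSSs lower counts by construction, and the cause of the other changes was not tested.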
